A study of Mus musculus with 2 samples.

Results

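The amyloid precursor protein gene App, its relatives Aplp1 and Aplp2, and 6 genes of the enzymes and sorting receptor that act on the precursor were described in the mouse hippocampus. The 9 genes (App, Aplp1, Aplp2, Bace1, Adam10, Psen2, Ncstn, Aph1a and Sorl1) were taken by symbol from 55536 genes, with their 62 annotated transcripts. Total RNA came from male B6CASTF1/J mice, hybrids of C57BL/6J and CAST/EiJ, at postnatal day 14, with 300 ng of RNA per library. The tissue is named hippocampus, and elsewhere a layer of it, in the labels. Both libraries belong to 1 group, numbered biological replicates 1 and 2, so no condition was compared. Each label lists 3 males of its own and does not say whether their RNA was pooled, and both name the same donor entry. No transgene, deletion or treatment is named, and ERCC spike-ins (synthetic RNAs) were added.

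App encodes a membrane protein that is cut in alternative ways. Adam10, the main alpha-secretase of neurons, cuts inside the amyloid-beta stretch, while Bace1, the beta-secretase, cuts at its start. Gamma-secretase, a complex of a presenilin, nicastrin (Ncstn), an Aph1 protein and Pen-2 (Psenen), then cuts the remaining stub within the membrane. Sorl1 is a sorting receptor that carries App between endosomes and the Golgi. Aplp1 and Aplp2 are cut by many of the same enzymes but lack the amyloid-beta stretch. The transcripts of App differ chiefly in exon 7, which encodes a Kunitz-type protease inhibitor domain, and exon 8. The form without either is the form typical of neurons.

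The sequences that separate the main forms were read from the GENCODE M21 transcripts (mm10) and are written 5′ to 3′ on the coding strand. The first pair is the inhibitor exon of App and that of Aplp2. Capitals mark bases that are the same at the same position in both.
App exon 7: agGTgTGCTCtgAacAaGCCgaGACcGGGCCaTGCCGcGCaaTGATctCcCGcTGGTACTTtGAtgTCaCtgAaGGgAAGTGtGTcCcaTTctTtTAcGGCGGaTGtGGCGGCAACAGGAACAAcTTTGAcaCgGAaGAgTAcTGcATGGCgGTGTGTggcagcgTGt
Aplp2 inhibitor exon: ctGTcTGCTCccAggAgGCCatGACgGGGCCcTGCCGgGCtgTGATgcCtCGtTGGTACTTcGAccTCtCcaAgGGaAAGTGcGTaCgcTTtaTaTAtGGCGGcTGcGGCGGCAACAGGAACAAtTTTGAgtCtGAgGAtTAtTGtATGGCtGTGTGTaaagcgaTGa
App exon 7 is at chr16:85043576-85043743 on the minus strand, and the Aplp2 exon, exon 7 of Aplp2-201, at chr9:31167561-31167728 on the minus strand. Both are coding exons of 168 bases, or 56 codons, and 114 of the 168 bases (67.9%) were identical. The best window of the same length in Aplp1-201, the one complete coding transcript of Aplp1, matched App exon 7 at 66 bases (39.3%).

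The other coding exons that are used or skipped in the abundant transcripts are shown next, since the transcripts differ in them.
App exon 8: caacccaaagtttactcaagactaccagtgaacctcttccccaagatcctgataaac
App exon 15: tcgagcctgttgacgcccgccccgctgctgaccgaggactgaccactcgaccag
Aplp2 short exon: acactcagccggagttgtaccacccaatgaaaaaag
Bace1 exon 6: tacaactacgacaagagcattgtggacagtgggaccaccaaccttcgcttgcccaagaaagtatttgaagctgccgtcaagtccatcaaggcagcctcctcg
App exon 8 (chr16:85040251-85040307, minus strand) has 19 codons and exon 15 (chr16:84971408-84971461, minus strand) has 18. The short exon of Aplp2, exon 13 of Aplp2-202, has 12 codons (chr9:31156190-31156225, minus strand). Bace1 exon 6 has 102 coding bases (chr9:45858400-45858501, plus strand).

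The junctions that tell the App forms apart join exon 6 to exon 9 or to exon 7. In each, 15 bases of exon 6 are in lower case and 15 bases of the next exon in capitals.
App exon 6 to 9 junction: aggaggtggtccgagTTCCCACGACAGCAG
App exon 6 to 7 junction: aggaggtggtccgagAGGTGTGCTCTGAAC
The first run was found in App-201 alone among the 11 App transcripts. The second was found in App-202, App-203, App-204, App-206, App-207 and the noncoding App-209.

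The stretch of App-201 that encodes amyloid-beta is shown because all the cuts fall in or beside it. Capitals mark codons 1, 17 and 41 of the 42, the first codons after the beta cut, the alpha cut and a main gamma cut.
App amyloid-beta stretch: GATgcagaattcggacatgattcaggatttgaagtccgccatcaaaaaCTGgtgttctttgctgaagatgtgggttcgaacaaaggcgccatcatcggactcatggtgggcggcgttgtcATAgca
It covers codons 597 to 638 of App-201 and is split between exon 16 (51 bases) and exon 17 (75 bases) of App-206. Its outer ends in mm10 are chr16:84962794-84965720 on the minus strand. Transcripts that hold both exons carried 98.3% and 99% of App TPM in replicates 1 and 2.

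Replicate 1 held 29144848 gene counts and replicate 2 held 31755544. The 9 genes held 80530 counts (0.276%) and 90631 counts (0.285%). Levels are given as TPM, that is, reads per transcript length on a fixed total for each library, and values with ± are means with the SD of n = 2 libraries. In bulk tissue, fewer cells of a type and less RNA per cell cannot be told apart. Markers of the tissue were present, with Slc17a7, the vesicular glutamate transporter of excitatory neurons, at 663 and 687 TPM. The libraries differed in marker content. The 8 genes for myelinating oligodendrocytes summed to 1771 TPM in replicate 1 and 943 in replicate 2, 4 thalamic genes to 49.1 and 27.7, and 5 choroid plexus genes to 89 and 47. Nearly all of the choroid plexus sum was Ttr, at 85.9 and 45.8, and the other genes of that list were at most 1.19 TPM. The 5 inhibitory neuron markers summed to 315 and 407, of which Sst was at 138 and 204. Their median log2 ratio of replicate 2 to replicate 1 was only 0.08, with Gad1 at 0.08, Gad2 at 0.06 and Slc32a1 at -0.02.

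The family genes stood far above the enzymes. App (ENSMUSG00000022892.11, chromosome 16, 84949685 to 85173766, minus strand) was at 502 TPM in replicate 1 and 516 in replicate 2, or 509 ± 9.7. It ranked 65 among 22028 protein-coding genes. Aplp1 (ENSMUSG00000006651.8, chromosome 7, 30434982 to 30445535) was at 411 and 444 TPM, and Aplp2 (ENSMUSG00000031996.17, chromosome 9, 31149557 to 31211815) at 185 and 192. The median of the 12924 protein-coding genes with at least 1 TPM in both libraries was 15.2 TPM. App made up 45.7% and 44.8% of the summed TPM of the family. The proteins of App-201 and Aplp2-202, aligned end to end, were identical at 49.8% of positions, those of App-201 and Aplp1-201 at 38%, and those of Aplp1-201 and Aplp2-202 at 40.7%.

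A pair of genes was called different in level when the log2 ratio of their TPM had 1 sign in both libraries and a mean beyond both 0.5 and 2 SD. No test was made, because exact sign flips of 2 libraries give a two-sided p of 0.5 or more. By that rule 14 of 17 pairs differed. App exceeded Aplp2 by 1.43 ± 0.012 on the log2 scale, and Aplp1 exceeded Aplp2 by 1.18 ± 0.039. App and Aplp1 were not called different, with a log2 ratio of 0.25 ± 0.051. The 3 protein-coding genes nearest to App, by distance of log2(TPM + 1) over the 2 libraries, were Tpt1 (491 and 506 TPM), Gpm6a (498 and 533) and Nnat (504 and 543).

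**Figure D1:**
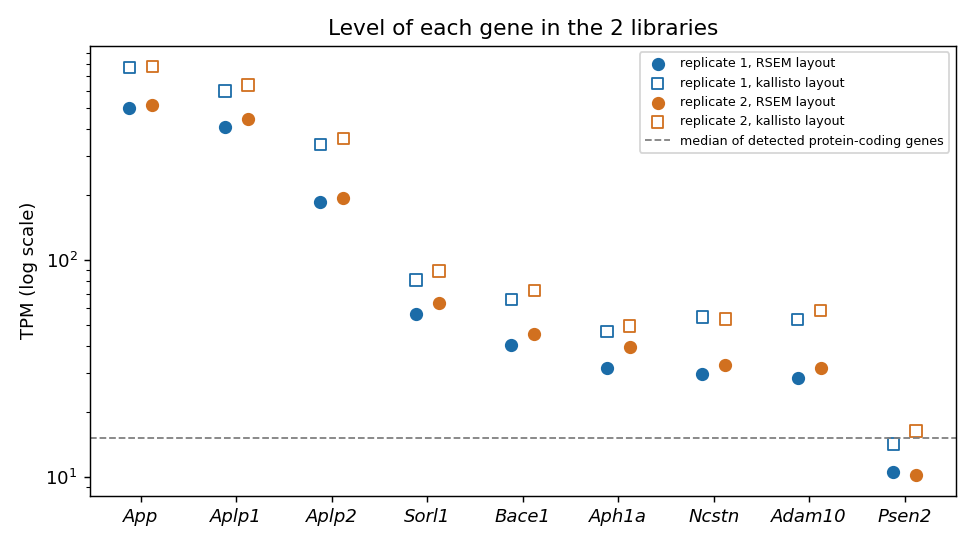
Level of the 9 genes as TPM on a log axis, 1 point per library, with filled circles from the tables in RSEM layout and open squares from those in kallisto layout. App, Aplp1 and Aplp2 lie above the 6 others in both libraries, and Psen2 is lowest, at 10.5 and 10.2 in the RSEM layout.

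Sorl1 was the highest of the 6 members that sort or cut App. Sorl1 (ENSMUSG00000049313.8, chromosome 9, 41964720 to 42124297) was at 56.5 and 63.3 TPM. Sort1, which encodes the related receptor sortilin, was at 112 and 116 TPM, above Sorl1 by 1.91-fold. App exceeded Sorl1 by 3.09 ± 0.089 on the log2 scale.

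Bace1 (ENSMUSG00000032086.12, chromosome 9, 45838580 to 45864399), the beta-secretase, was at 40.5 and 45.8 TPM. Its relative Bace2 was at 2.44 and 3.65 TPM, so Bace1 was 3.85 ± 0.29 higher on the log2 scale. App exceeded Bace1 by 3.56 ± 0.097. Genes on the opposite strand overlap Bace1, which had 3828 and 4314 counts. They are the protein-coding Rnf214 with 1604 and 1788 counts, the antisense gene Gm16536 with 213 and 233, and Gm49338 with 335 and 385. The labels name the spike-in profile for stranded libraries, but no source used here gives the strand setting of the counting.

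Adam10 (ENSMUSG00000054693.14, chromosome 9, 70678997 to 70780229) was at 28.5 and 31.7 TPM. It exceeded Adam17, another alpha-secretase, which had 11 and 10.7 TPM, by 1.47 ± 0.14 on the log2 scale. Adam9, also able to cut App, was at 21.8 and 21.4 TPM. Adam10 lay below Bace1, with a log2 ratio of -0.52 ± 0.016, and in the kallisto layout that ratio was -0.30 ± 0.0019 and no longer passed the rule. Of the tetraspanins that bring Adam10 to the cell surface, Tspan5 was at 72 and 86.7 TPM and Tspan17 at 36 and 35.3.

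Among the gamma-secretase genes, Ncstn was at 31.4 ± 2.07 TPM, the Aph1 genes summed to 49.2 ± 3.27, and Psenen was at 32.7 ± 0.58. Ncstn was not called different from Psenen or from Aph1a. Psen2 (ENSMUSG00000010609.15, chromosome 1, 180227004 to 180263438), which encodes a catalytic subunit, was the lowest of the 9 genes at 10.5 and 10.2 TPM. Ncstn exceeded Psen2 by 1.61 ± 0.13 on the log2 scale. Ncstn (ENSMUSG00000003458.12, chromosome 1, 172066013 to 172082795), whose product receives substrates, was at 29.9 and 32.9 TPM. The protein-coding gene Copa overlaps it on the opposite strand, with 5328 and 6081 counts against 1455 and 1699 for Ncstn.

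Aph1a (ENSMUSG00000015750.15, chromosome 3, 95893969 to 95898288), a scaffold subunit, was at 31.9 and 39.8 TPM. It held 72.6% ± 6.5 of the summed TPM of Aph1a, Aph1b and Aph1c. Its TPM differed between libraries more than its counts, which were 1206.80 and 1358.84. The short transcript Aph1a-203, of 286 bases and with an incomplete end, went from 1.69 to 7.78 TPM on 6.37 and 31.29 counts, and the kallisto layout listed it at 0 in both. Aph1b was at 12.8 and 9.53 TPM and Aph1c at 2.17 and 2.23. Aph1b and Aph1c are close paralogs, and the deposited posterior SD of their counts was at most 0.665% for Aph1b and 2.37% for Aph1c. In the kallisto layout Aph1b was at 13.8 and 12 TPM and Aph1c at 5.13 and 4.6. The log2 ratio of Aph1b to Aph1c was 2.33 ± 0.33 in the RSEM layout and 1.41 ± 0.03 in the kallisto layout, so its size depends on the quantification.

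**Figure D2:**
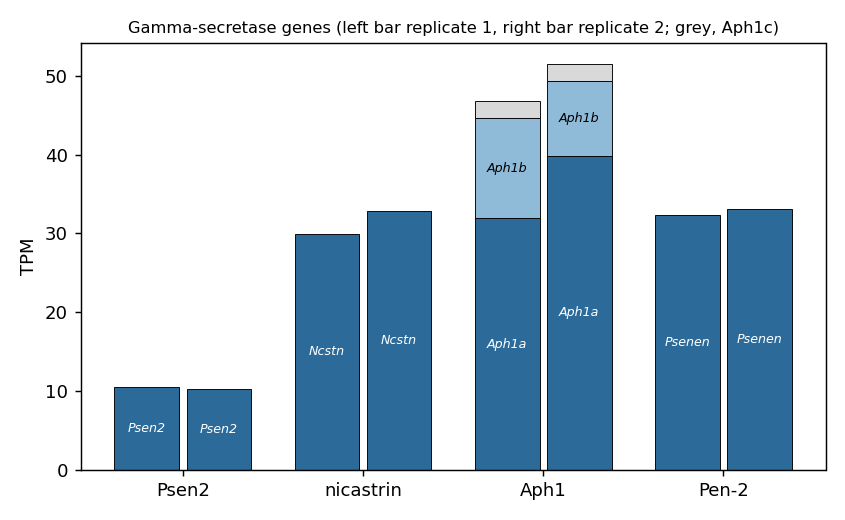
Stacked TPM of genes for the nicastrin, Aph1 and Pen-2 positions of gamma-secretase and of Psen2, 1 bar per library and starting at 0. Aph1a forms the larger part of the Aph1 bars in both libraries, and the nicastrin and Pen-2 bars lie between 29.9 and 33.1.

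The order of the 9 genes from App through Aplp1, Aplp2, Sorl1 and Bace1 was the same in both quantifications. Aph1a, Ncstn and Adam10, at 35.9 ± 5.57, 31.4 ± 2.07 and 30.1 ± 2.26 TPM, were close, and each overlapped with its neighbour in the order (Aph1a with Ncstn, and Ncstn with Adam10). The kallisto layout placed Adam10 at 55.9, Ncstn at 54.1 and Aph1a at 48.2. Psen2 came last in both.

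App transcripts were nearly all of the form without exons 7 and 8. App-201 (ENSMUST00000005406.11, 695 residues) was at 461 and 476 TPM. Forms with exon 7 alone, App-202 (751 residues) and App-204 (733 residues), summed to 16.5 and 14.2 TPM, all from App-202, since App-204 was listed at 0. Forms with exons 7 and 8, which are App-203 (752 residues), App-206 (770 residues) and App-207 (582 residues), summed to 16.3 and 21.4 TPM. No App transcript with a complete coding sequence had exon 8 without exon 7. In shares of App TPM, exon 7 alone was at 3.02% ± 0.37, both exons at 3.69% ± 0.64, and exon 7 in any form at 6.72% ± 0.27. The shares of the first 2 classes overlapped between libraries.

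The exon 7 share depends on a transcript with a long last exon. App-206 has 8167 bases, and 4753 of them (58.2%), in its last exon, are in no other App transcript. Reads there count for App-206 whichever coding form they come from. Without App-206 among the exon 7 forms, a choice made after seeing the data, their share was 5.12% ± 0.36. By counts in place of TPM, the exon 7 share was 9.13% with App-206 included and 5.02% without it. Forms without exon 15, the exon skipped in the L-APP forms typical of non-neuronal cells, held 1.58% and 2.61% of App TPM.

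Single minor forms were less certain than their sums. The deposited posterior SD, the uncertainty of assigning reads, reached 0.449% of the count for App-201, 15.6% for App-202 and 19.2% for App-203. App-203 had 480.98 counts in replicate 1 and 843.04 in replicate 2, and App-202 had 1005.48 and 923.67. App-207 had 25.66 and 70.85 counts with a posterior SD of up to 204%.

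Aplp2 used its inhibitor exon far more than App. Among coding transcripts, those with the exon held 62.6% and 63.4% of Aplp2 TPM, against 6.63% and 6.96% for App. The ranges of the 2 genes did not overlap in either table, and the kallisto layout gave 67.4% ± 0.77 for Aplp2 and 7.86% ± 0.018 for App. In TPM, exon-bearing transcripts of Aplp2 were at 87 and 94.5 and those of App at 32.8 and 35.6, although App was the more abundant gene.

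**Figure D3:**
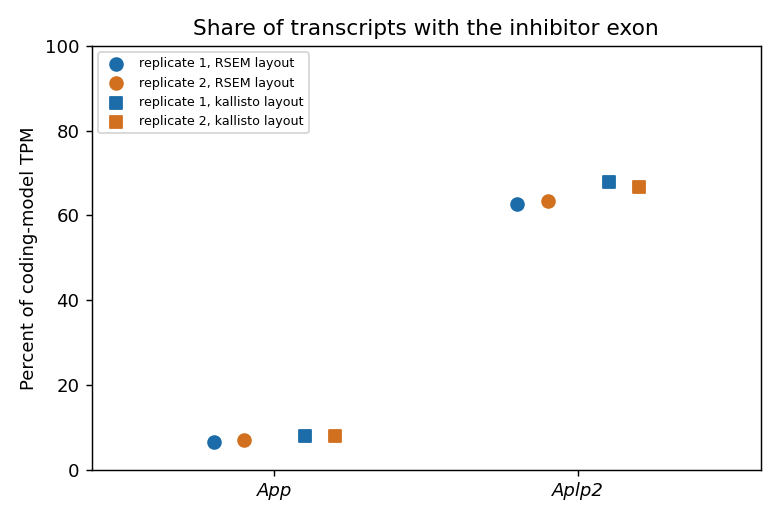
Percent of the TPM of coding transcripts that carry the Kunitz-type inhibitor exon, for App and Aplp2, 1 point per library, with circles for the RSEM layout and squares for the kallisto layout. Aplp2 points lie between 62.6 and 67.9 and App points between 6.63 and 7.87.

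The Aplp2 share was spread over 3 coding transcripts. Aplp2-201 (751 residues), with the inhibitor exon and without the short exon, held 28.6% ± 1.2 of the gene's TPM. Aplp2-202 (707 residues), with the short exon alone, held 28.3% ± 0.21. Aplp2-203, whose annotated end is incomplete and which has both exons, held 19.5% ± 0.25. In the kallisto layout these were 16.5%, 21% and 26.9%, so the leading transcript is uncertain. Aplp2-209, with neither exon, was listed at 0 in both tables.

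In 7 of the 9 genes a single transcript held over 50% of TPM in the mean of both libraries, and the same count was found in the kallisto layout. Aplp1-201 held 97.3% ± 0.073, App-201 92.1% ± 0.29 and Sorl1-201 93.1% ± 2.9. Adam10-201 held 80.6% ± 0.95 and Ncstn-201 79.1% ± 1.1. The 2 exceptions were Aplp2 and Bace1.

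Bace1 was divided between forms with and without exon 6. Bace1-201 (501 residues) was at 19 and 20.9 TPM and Bace1-202 (467 residues), which lacks the exon shown above, at 17.2 and 16.2. The ranges did not overlap in this table. In the kallisto layout Bace1-201 was at 23.1 and 23.5 TPM and Bace1-202 at 23.4 and 25.5, so their order depends on the quantification. Bace1-201 also has 1915 noncoding bases in its last exon that Bace1-202 lacks. Reads there cannot count for Bace1-202 even if exon 6 was skipped, so the split does not measure exon 6 use alone. A retained-intron transcript, Bace1-204, took 5.84% ± 0.51 of Bace1 TPM in the first table and 20.1% ± 2.5 in the second.

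Adam10 had a second transcript annotated as a target of nonsense-mediated decay. Adam10-202 leaves out the first 26 coding bases of exon 12 of Adam10-201. The run starts with 12 bases of exon 11, and capitals mark the 26 bases left out.
Adam10 exon 12 start: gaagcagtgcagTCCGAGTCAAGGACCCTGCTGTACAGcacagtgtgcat
Exon 12 starts at position 70766872 of chromosome 9 on the plus strand. Adam10-202 was at 3.97 and 5.55 TPM, or 15.7% ± 2.5 of the gene, and 24.2% ± 0.44 in the kallisto layout. Its deposited posterior SD reached 24.6% of its count. Adam10-202 also lacks 1847 noncoding bases of the last exon of Adam10-201, so the split of reads does not rest on the 26 bases alone.

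Aph1a and Psen2 had forms that differ little in coding sequence. Aph1a-202 (265 residues) held 55.2% ± 4.3 and Aph1a-201 (247 residues) 24% ± 3.5 of Aph1a TPM. Psen2-205 (448 residues) held 65.4% ± 4.1 in the RSEM layout. In the kallisto layout it held 77.6% in replicate 1 and 27.6% in replicate 2, where Psen2-204 took 32.2%. Psen2-204 and Psen2-205 encode the same 448 residues and differ only in a noncoding first exon. Psen2-202, which lacks 3 coding bases of exon 9, had 0 counts in replicate 1 and 26.19 in replicate 2.

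Retained-intron transcripts took 23.6% ± 1.7 of Aplp2 TPM, 19% ± 0.052 of Ncstn and 16.9% ± 5.6 of Psen2. They took 0.658% ± 0.36 of App, 2.36% ± 1.6 of Adam10 and 2.73% ± 0.073 of Aplp1. Across 7509 detected protein-coding genes with such a transcript the median was 11.3%, with quartiles of 4.78% and 23.6%. The shares depended on the quantification. The kallisto layout gave 35.6% for Aplp2, 29.9% for Ncstn and 12.7% for Psen2, and shares of counts gave 11.5%, 5.58% and 11.1%. Total RNA includes unspliced RNA, and what it adds to these shares was not tested.

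**Figure D4:**
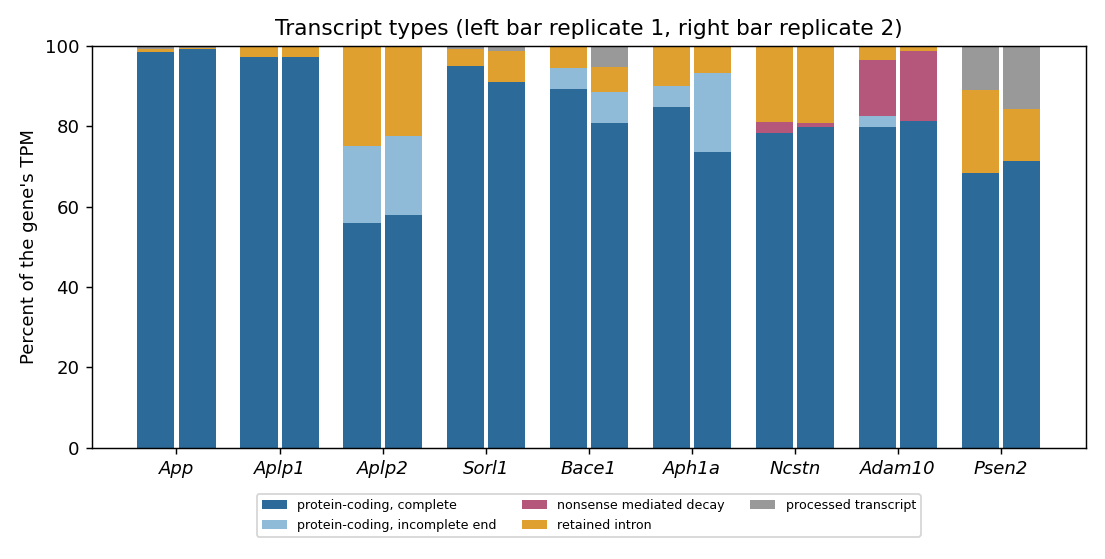
Percent of each gene's TPM by annotated transcript type, stacked from 0 to 100, with 1 bar per library. Complete coding transcripts hold over 90% of App, Aplp1 and Sorl1 in both libraries, and 55.9% and 57.9% of Aplp2.

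The 2 libraries were then compared gene by gene, by a two-sided exact binomial test of the counts, adjusted by the Benjamini-Hochberg method over the 18332 genes whose mean count reached 10. The test measures differences beyond counting noise between these libraries and not between conditions. Of the 9 genes 3 passed an adjusted p of 0.05, all higher in replicate 2, where 22.7% of all genes passed, 12.5% higher in replicate 2 and 10.2% higher in replicate 1. Adam10 had 2297 and 2805 counts and was higher by 0.15 on the log2 scale (exact 95% interval 0.07 to 0.23, adjusted p = 0.002). Aplp1 was higher by 0.06 (0.03 to 0.09, adjusted p = 0.00019) and Sorl1 by 0.06 (0.02 to 0.09, adjusted p = 0.014). The median size of the difference over all genes was 0.14.

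The other 6 genes did not pass. App differed by -0.01 (-0.03 to 0.02, adjusted p = 0.77), but by 0.10 with libraries scaled by spike-in totals, which called 8 of the 9 genes and 30.1% of all genes higher in replicate 2 and put the median over all genes at 0.11. Aplp1, Adam10 and Sorl1 were higher in replicate 2 under each scaling tried. Psen2, with 344 and 352 counts, had the widest interval (-0.32 to 0.11). The marker sums given above also differed between these libraries, with all 8 myelinating oligodendrocyte genes lower in replicate 2 and a median log2 ratio of -1.12, and their part in these differences was not tested. The intervals cover counting error only. With a coefficient of variation of 0.1 between replicates assumed in edgeR's exact test, 0 of the 9 genes and 0.944% of all genes passed, and 0 of the 9 had an unadjusted p under 0.05.

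**Figure D5:**
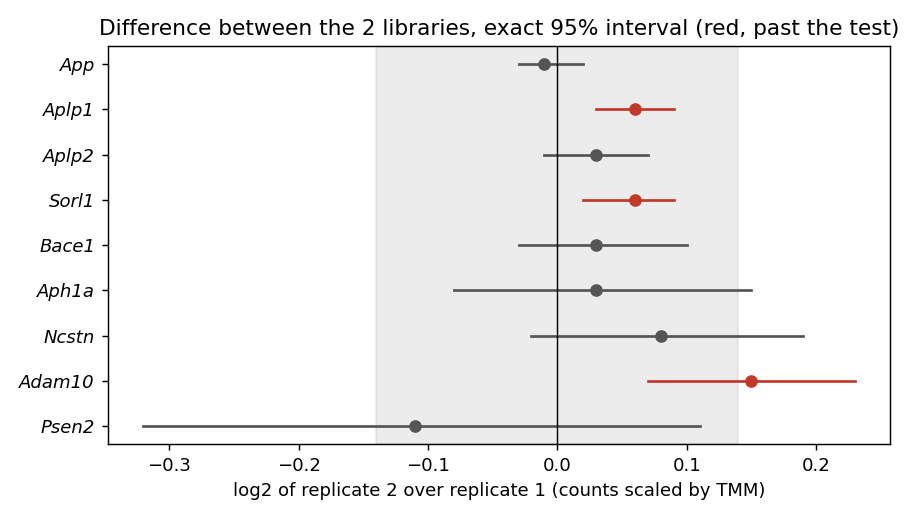
Log2 ratio of replicate 2 to replicate 1 for the 9 genes, with exact 95% intervals for counting error, red where the adjusted p was under 0.05. Adam10, Aplp1 and Sorl1 lie to the right of 0, and the grey band marks the median size of the difference over all genes, 0.14 to either side.

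Among transcripts, 47 of the 62 reached a mean count of 10 and 16 passed, 11 higher and 5 lower in replicate 2, where 35.3% of all transcripts tested passed, 16.6% higher and 18.7% lower. App-203 was higher in replicate 2 by 0.67 on the log2 scale (adjusted p = 3.4e-15) and App-202 lower by a log2 ratio of -0.26 (adjusted p = 0.00043), while App-201 was at -0.00 (adjusted p = 0.91). In the kallisto layout App-203 was at 0.35 (adjusted p = 9.1e-06) and App-202 at -0.04 (adjusted p = 0.7), which did not pass. The test takes estimated counts as exact. Of the 14 tested transcripts with a posterior SD of at most 10% of the count, 6 passed, a split made after seeing the data. No like share over all transcripts was computed, so this count has no background to be read against.

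The wider pathway was read from 12 lists of 61 genes, the 9 genes included. All 61 were tested, and 23 passed, 16 higher and 7 lower in replicate 2, beside 22.7% of all genes, 12.5% higher and 10.2% lower. The split was 21 and 5 with DESeq2 size factors, beside 2742 and 1646 of all 18332 genes. With spike-in totals it was 38 and 0, beside 5516 (30.1%) and 1000 of all genes. In the first scaling, without the 9 genes, 20 of 52 passed, 13 higher and 7 lower, beside 22.7%, 12.5% and 10.2% of all genes. The median log2 ratio of the 61 genes was 0.04, and that of all genes 0.00. The test finds smaller differences in genes with more counts. The 61 genes had a median of 30.1 TPM, against 15.2 for protein-coding genes with at least 1 TPM in both libraries. With a mean count of at least 50, 22 of 60 pathway genes passed, beside 4026 of 14213 over all genes. Gamma-secretase had 1 of 7 genes past the test, Aph1b, with a log2 ratio of -0.20 (adjusted p = 0.026). Of the 6 tetraspanin partners of Adam10, 4 passed, Tspan5 (0.18) and Tspan10 (1.91) higher and Tspan15 (-0.31) and Tspan33 (-0.24) lower in replicate 2. Tspan10 had 19 and 80 counts.

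Adaptors that bind the cytoplasmic tail of App gave 4 of 9, where 22.7% of all genes passed. Apba1 (67.1 and 78.6 TPM), Apba2 (115 and 143 TPM) and Dab1 (62.5 and 64 TPM) were higher in replicate 2, and Apbb2 (28.7 and 27 TPM) lower. Apbb1, also called Fe65, was at 157 and 166 TPM and did not pass, and it exceeded Apbb2 by 2.53 ± 0.11 on the log2 scale. Of the amyloid-beta degrading proteases 1 of 4 passed, Ece1 (20.6 and 28.8 TPM), higher in replicate 2. Ide, the insulin-degrading enzyme, was at 19.4 and 21.4 TPM, and Mme, neprilysin, at 1.5 and 2.04.

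Other Bace1 substrates gave 3 of 6, beside 22.7% of all genes, with Chl1 (79.8 and 95.9 TPM) and Sez6 (68 and 80.5 TPM) higher and Scn2b (69.8 and 66.9 TPM) lower in replicate 2. Apolipoproteins and lipoprotein receptors gave 3 of 6, all higher, and Apoe, the main lipid carrier made by astrocytes, had the highest level of the 61 genes at 1123 and 1241 TPM. Retromer and GGA proteins, which sort App together with Sorl1, gave 1 of 7, Gga3 (29.3 and 24.5 TPM), lower in replicate 2. The BRI family, inhibitors of App processing, gave 2 of 3, Itm2b (386 and 424 TPM) higher and Itm2c (212 and 199 TPM) lower. Sorting receptors of the Sorl1 family gave 2 of 5, Sorl1 and Sorcs2 (24.6 and 28.4 TPM), both higher.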

How the data were processed

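Expected counts (estimated reads per gene or transcript, unnormalised) and TPM were deposited by the authors in tables of RSEM layout, with the posterior standard deviation of the count, used here as a score of read assignment, per the file headers. The deposited percent of a gene's TPM per transcript was checked against shares recomputed from TPM. Estimated counts and TPM of a second transcript table, in kallisto layout, were also deposited, and gene sums were taken from it. The build is mm10, per the labels. Transcript structures, coding lengths and sequences came from GENCODE M21, since the tables give no coding length. Not given in the sources used here are the aligner, the quantifier settings and their versions. Entries that carried only a number held 2.67e-05% and 9.40e-06% of the counts of replicates 1 and 2 and were left out, with the spike-ins.

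Counts were rounded, library sizes scaled by TMM (edgeR 4.0.16, limma 3.58.1, R 4.3.3) and features compared by a two-sided exact binomial test, with a prior count of 0.5 in the log2 ratios and a mean count of at least 10, after a check on simulated data. P-values and intervals measure only counting error between these 2 libraries, since the test has no term for variation between replicates. Reads are not independent molecules, so even that error may be understated. DESeq2 1.42.0 gave alternative size factors. Other alternatives were library totals, spike-in totals, other count filters, an edgeR exact test, the second table and leaving out each library. Proteins translated from GENCODE were aligned with Biopython 1.88 (BLOSUM 62, gap opening -11, extension -1), and other values came from Python 3.11.15, numpy 2.4.6, scipy 1.17.1, pandas 2.3.3 and matplotlib 3.10.9.

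The 9 genes, the 12 pathway and 9 marker lists and the tests were chosen with earlier results of these data known. The text names all 9 genes, genes of the pathway lists, App coding transcripts, markers that check the tissue or moved, and the 3 genes nearest to App. It also names some transcripts with at least 10% of their gene's TPM in a library. Others at that level, among them Aplp2-207 and Psen2-208, are not described. Aph1a-203, Bace1-204, Psen2-202 and genes overlapping the 9 were named where a value turned on them. Results for 1 gene of the pathway lists are not reported here.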

Additional observations from a re-analysis of the deposited data

How the results depend on the processing

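Scaling by spike-in totals put the median log2 ratio over all genes at 0.11, so its changes are relative to that. It gave 6516 calls over all genes (84.7% of them higher in replicate 2, against 54.9% of 4167), 8 of the 9 genes and 38 of the 61 pathway genes, and turned App to 0.10 (adjusted p = 2.6e-18). With an assumed coefficient of variation of 0.1, edgeR's exact test gave 173 of 18332 genes (0.944%), 0 of the 9 and 1 of the 61. It gave 8353 of all 52894 transcripts tested, and 6 of the 47 tested transcripts of the 9 genes. Kallisto-layout counts called 5 of the 9 genes, beside 5118 of all 20231 genes tested, and put App at 0.03 (adjusted p = 0.026). Among the 14 tested transcripts of the 9 genes with a posterior SD of at most 10%, 6 passed, with no like share over all transcripts computed. DESeq2 size factors and library totals raised the share of calls higher in replicate 2 from 69.6% to 80.8% and 80% of the pathway calls. Over all genes the same share went from 54.9% to 62.5% and 60.7%. The median TPM of the 9 genes was 43.1, against 68.9 in the kallisto layout and 90.9 over protein-coding genes alone. The App exon 7 share of 6.72% was 7.76% in the kallisto layout, 9.13% by counts and 5.12% without App-206, and the Aplp2 inhibitor exon share of 63% was 67.4% and 58.8% in the first 2 of these. Aplp2 passed with DESeq2 size factors (adjusted p = 0.046), spike-in totals and the kallisto layout. With 2 libraries, leaving out 1 gives the value of the other, so it bears on no result's stability. Depth limits Psen2 most, with 344 and 352 counts.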
